A study of Mus musculus with 18 samples.

Results

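The genes described here encode the proteins of the cytosolic ribosome, measured in visceral fat, a white adipose tissue (WAT), of 18 mice. A gene was a member when its symbol on the array had the form of a protein of the large (Rpl) or small (Rps) subunit, or of the acidic stalk proteins Rplp0, Rplp1 and Rplp2, and when a probe set carried that symbol alone. By this rule 52 of the 19938 measured genes were members, 33 of the large 60S subunit and 19 of the small 40S subunit. No expression value decided which genes were members, but a gene with several probe sets was represented by that of highest mean over the 18 arrays. All mice were wild-type male C57BL/6N animals, 5 to 6 months old. In the STZ, BEZ group (n = 5) streptozotocin (STZ) had been given at 65 mg/kg on 5 successive days, and chow with 0.25% or 0.5% bezafibrate (BEZ) was fed for 8 weeks from 2 weeks after the injections. The STZ, SD group (n = 6) had the same injections and standard diet (SD). The Con, SD group (n = 7) had citrate buffer and standard diet. STZ was given at an age of 10 to 16 weeks. The labels do not say which BEZ content each mouse ate, while the study's methods name only the higher content and give another STZ dose and controls without injection. STZ kills the insulin-producing beta cells of the pancreas, so that the mice lack insulin, and BEZ activates the peroxisome proliferator-activated receptors. The comparisons ask how insulin deficiency and BEZ treatment altered the fat tissue.

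Each ribosome is built from one copy of nearly every ribosomal protein together with ribosomal RNA, and the cell therefore makes the proteins in matched amounts. Their mRNAs begin with a C followed by a stretch of pyrimidines, the 5′ terminal oligopyrimidine (TOP) motif. Through this motif the kinase complex mTORC1, which insulin and amino acids activate, controls how strongly these mRNAs are translated and how long they last. Array signals measure the amount of mRNA and not its translation. In bulk tissue, fewer cells of a type and less RNA per cell cannot be told apart.

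The starts of 6 members are printed because they show a pyrimidine run near the annotated start in genes with small and with large adjusted p. Such a run was not general, since 21 members with a window had one and 20 did not. They were taken from RefSeq promoter windows (GRCm38.p6), which were found for 41 of the 52 members, and each runs from 100 bases before to 30 bases after the annotated start, 5′ to 3′ on the gene's strand. Capitals mark runs of at least 8 C or T letters within 20 bases before and 30 bases after the start. Of the members with such a run in a single window, Rps7, Rps15a and Rpl5 had the smallest adjusted p in STZ, SD vs. Con, SD, and Rpl26, Rplp2 and Rpl28 the largest.
Rps7 (chr12:28635924-28636053, minus strand): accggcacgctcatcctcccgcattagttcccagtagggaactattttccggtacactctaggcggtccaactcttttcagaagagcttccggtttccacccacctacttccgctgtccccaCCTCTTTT
Rps15a (chr7:118116118-118116247, minus strand): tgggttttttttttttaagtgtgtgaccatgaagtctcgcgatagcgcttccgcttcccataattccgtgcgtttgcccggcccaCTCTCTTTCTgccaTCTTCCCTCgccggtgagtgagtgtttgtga
Rpl5 (chr5:107900428-107900557, plus strand): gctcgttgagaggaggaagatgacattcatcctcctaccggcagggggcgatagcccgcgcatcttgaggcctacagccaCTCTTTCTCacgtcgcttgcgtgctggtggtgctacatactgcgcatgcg
Rpl26 (chr11:68901466-68901595, plus strand): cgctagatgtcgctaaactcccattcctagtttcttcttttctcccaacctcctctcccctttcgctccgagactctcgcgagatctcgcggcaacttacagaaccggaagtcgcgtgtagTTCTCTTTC
Rplp2 (chr7:141447551-141447680, plus strand): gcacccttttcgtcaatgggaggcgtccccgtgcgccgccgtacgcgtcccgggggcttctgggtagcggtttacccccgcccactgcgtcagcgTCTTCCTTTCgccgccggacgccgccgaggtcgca
Rpl28 (chr7:4792865-4792994, plus strand): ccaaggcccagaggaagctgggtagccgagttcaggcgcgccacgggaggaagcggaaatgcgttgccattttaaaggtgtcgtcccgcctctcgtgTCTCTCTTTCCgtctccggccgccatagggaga

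A pyrimidine run of this kind was present in 22 of the 48 windows of members (45.8%), and in 19% of the 32841 windows of all genes. The letters CCGGAAG, the core bound by ETS factors, read on both strands of the full windows of 300 bases, stood in 16 member windows (33.3%) and in 8.86% of all windows. The E-box CACGTG, which MYC can bind, was in 7 member windows (14.6%) against 7.15% of all, AAGATGGC of the YY1 core in 2 (4.17%) against 2.75%, and TATAAA in 5 (10.4%) against 13.6%. A motif match is a description of letters, and an annotated start can lie upstream or downstream of the base where transcription begins. The run of Rpl5 and the upstream run of Rps15a lie wholly before the annotated start, so as annotated they are not part of the mRNA. The runs of Rps7 and Rpl26 lie wholly after it, so as annotated they do not begin the mRNA. Both end at the last base searched and may continue beyond it.

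Before the results, 3 properties of the arrays bear on them. The 9 measured genes of a list of 10 white adipocyte markers (Adipoq, Plin1, Fabp4 and others) had list means of 12.16 to 12.44 in STZ, BEZ, 10.09 to 12.50 in STZ, SD and 11.87 to 12.54 in Con, SD. Of 14 exocrine pancreas genes, 11 were measured, and their mean was 13.50 on STZ, SD replicate 6, between 9.02 and 11.85 on STZ, BEZ replicates 1 to 4, and from 5.92 to 6.37 on all other arrays. The mean of 7 epididymis genes ranged from 5.96 to 6.58 in STZ, BEZ, from 5.89 to 12.47 in STZ, SD and from 7.13 to 12.46 in Con, SD. STZ, SD replicate 6 also had the highest means of 5 B cell genes (9.38), 4 T cell genes (8.17) and 5 islet genes (10.28). Results are given with and without the 5 arrays of high pancreas signal, a set chosen after the values were seen.

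The mRNAs of 28 of the 52 ribosomal proteins were higher in STZ, SD than in Con, SD fat. The difference of group means was above 0 for 52 of 52 members, with a median of 0.31 on the log2 scale, or 1.24-fold, while the median over all genes was -0.03. With limma at an adjusted p under 0.10, 28 members rose and 0 fell. Over all genes tested, 5.82% were called higher and 4.52% lower in this comparison. At an unadjusted p under 0.05, 41 members were higher and 0 lower, where 10.7% of all genes were higher and 9.61% lower. The study's own kind of test, SAM at a false discovery rate of 10%, called 34 higher and 0 lower, with 7.51% of all genes called higher. The differences ran from 0.06 for Rpl41 and Rpl28 to 0.65 for Rps28.

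The response was not even over the 6 STZ, SD mice. The mean over the 52 members was 10.98, 11.31, 11.26, 11.27, 10.83 and 11.41 in STZ, SD replicates 1 to 6, against 10.65 to 11.02 in Con, SD, so that replicates 1 and 5 lay within the range of Con, SD and the other 4 above it. On replicates 2, 3, 4 and 6, between 41 and 47 of the 52 members exceeded the highest Con, SD array. This number was 17 on replicate 1 and 3 on replicate 5. The same count was not made over all genes. Without replicate 2 of STZ, SD 17 members were called higher (3.47% of all genes), and without replicate 4 of STZ, SD 18 (3.53%). Without replicate 2 of Con, SD 18 were called (4.31%), and without replicate 5 of STZ, SD 41 (5.65%). Leaving out replicate 6 of STZ, SD gave 25 called members, with 9.54% of all genes, and a median difference of 0.28. Leaving out all 5 arrays of high pancreas signal also gave a median difference of 0.28. Of the 28 members, 17 were called in each of the 18 fits that left out 1 array.

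**Figure D1:**
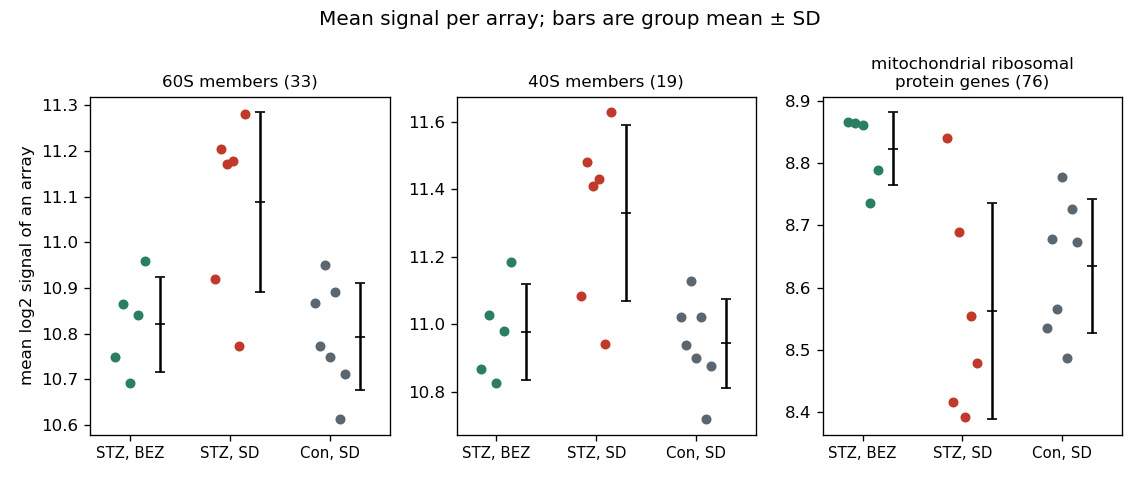
Mean log2 signal per array of the 60S members, the 40S members and 76 mitochondrial ribosomal protein genes, in STZ, BEZ, STZ, SD and Con, SD; points are arrays, in order of replicate number within a group, and black bars are group means ± SD. In both cytosolic panels 4 STZ, SD arrays lie above all others and 2 lie among the Con, SD arrays, while the 3 lowest mitochondrial means are those of STZ, SD replicates 2, 4 and 6.

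The 40S subunit decodes the mRNA and the 60S subunit forms the peptide bonds. Of the 19 proteins of the 40S subunit 14 rose, with a median difference of 0.40, and of the 33 of the 60S subunit 14 rose, with a median of 0.27. Whether the subunits differ was not tested. The difference also varied with signal strength. Among 16 members with a mean log2 signal of 12 or more the median difference was 0.20 with 5 called. Among the 36 under 12 it was 0.40 with 23 called. In Con, SD the mean log2 signal was 10.94 over the 40S members and 10.79 over the 60S members. Strong signals can be compressed on arrays, and the part of this in the difference between subunits was not tested.

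Rps28, a small protein near the mRNA exit of the 40S subunit, had the largest difference. Its log2 signal was 10.47, 11.03 and 11.68 (lowest, median, highest) in STZ, SD, against 10.00, 10.27 and 10.61 in Con, SD. It rose 1.56-fold (log2 difference 0.65 ± 0.17 SE, adjusted p = 0.032). The highest value was that of replicate 6, and the groups overlapped because replicates 1 and 5 of STZ, SD lay at 10.54 and 10.47.

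Rps20 and Rpl24 were the only members of which every STZ, SD array exceeded every Con, SD array, and over all genes 1.13% had such a separation in this direction. Rps20, in the head of the small subunit, had 12.22, 12.60 and 12.73 in STZ, SD and 11.91, 12.18 and 12.22 in Con, SD, which is a rise of 1.31-fold (adjusted p = 0.025). The gap was narrow, since the lowest STZ, SD array and the highest Con, SD array both round to 12.22. Rpl24, which forms part of a bridge between the subunits, had 9.90, 10.06 and 10.96 in STZ, SD and 9.40, 9.69 and 9.82 in Con, SD. It rose 1.45-fold (log2 difference 0.54 ± 0.13 SE, adjusted p = 0.029), and the array far above the rest was again replicate 6.

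Other 40S proteins followed. Rps7 had 11.63, 12.10 and 12.49 in STZ, SD and 11.33, 11.57 and 11.77 in Con, SD (0.49 ± 0.12 SE, adjusted p = 0.025). Rps15a had 8.05, 8.53 and 8.65 in STZ, SD and 7.71, 7.96 and 8.18 in Con, SD (0.45 ± 0.12 SE, adjusted p = 0.031). In Rps7 every STZ, SD array but replicate 5 stood above all Con, SD arrays, and in Rps15a every one but replicates 1 and 5. Rps6, the 40S protein that S6 kinase phosphorylates downstream of mTORC1, rose by a smaller amount, with 13.04, 13.21 and 13.33 in STZ, SD and 12.90, 13.00 and 13.11 in Con, SD (0.20 ± 0.06 SE, adjusted p = 0.083). Rps3, which lines the mRNA entry and also takes part in DNA repair, rose 1.34-fold (adjusted p = 0.066), as did the X-linked Rps4x by 1.36-fold (adjusted p = 0.040). Rps19, mutated in Diamond-Blackfan anaemia in humans, rose 1.30-fold (adjusted p = 0.054).

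In the 60S subunit the smallest adjusted p belonged to Rpl9, a protein at the base of the stalk. Its log2 signal was 11.93, 12.29 and 12.38 in STZ, SD and 11.62, 11.83 and 11.94 in Con, SD, a rise of 1.32-fold (0.40 ± 0.08 SE, adjusted p = 0.013). Only the lowest STZ, SD array, replicate 5, fell inside the Con, SD range. Rpl30, in a region of 60S that contacts 40S, rose 1.39-fold (adjusted p = 0.014), Rpl7 1.37-fold (adjusted p = 0.020), Rpl36a 1.42-fold (adjusted p = 0.025) and Rpl23a, which lies at the exit of the nascent chain, 1.28-fold (adjusted p = 0.026).

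Rpl8, close to the centre where peptide bonds form, had 10.47, 11.04 and 11.61 in STZ, SD and 10.21, 10.45 and 10.56 in Con, SD, and rose by 0.58 ± 0.14 SE on the log2 scale (adjusted p = 0.023). Rpl23 had 11.40, 11.90 and 12.31 in STZ, SD and 11.06, 11.25 and 11.47 in Con, SD, and rose 1.48-fold (0.57 ± 0.13 SE, adjusted p = 0.021). Rpl5, which carries 5S ribosomal RNA and can bind MDM2 when ribosome assembly fails, had 11.12, 11.59 and 12.19 in STZ, SD and 10.74, 11.03 and 11.19 in Con, SD (0.56 ± 0.14 SE, adjusted p = 0.033). In these 3 genes replicate 6 of STZ, SD was the highest array and replicates 1 and 5 the lowest of their group. Rpl22, a protein with roles in lymphocyte development in mice, rose 1.34-fold (adjusted p = 0.035), and Rpl14 1.24-fold (adjusted p = 0.073).

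The chosen probe sets of the stalk, to which the elongation factors bind, moved less. Rplp1 rose 1.18-fold (0.24 ± 0.08 SE, adjusted p = 0.075), with replicate 5 of STZ, SD at 12.36 far below the other 5. In a limma fit over all probe sets, the other Rplp1 probe set differed by 0.41 (adjusted p = 0.020). The other Rplp0 probe set differed by 0.08 (adjusted p = 0.65). Rplp0, often used as a reference gene, had 12.63, 12.87 and 13.04 in STZ, SD and 12.61, 12.76 and 13.00 in Con, SD, so the groups overlapped nearly throughout (0.07 ± 0.08 SE, adjusted p = 0.68). Rplp2, whose only probe set was dim (mean log2 signal 7.27), differed by 0.19 ± 0.13 SE (adjusted p = 0.44). Its STZ, SD arrays spread from 6.98 to 7.95 around Con, SD arrays of 7.06 to 7.29. These genes are named by a rule, and their lower figures do not show that the stalk differed from the body of the subunit, which was not tested.

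Of the other members that did not pass, Rpl28 (0.06 ± 0.07 SE, adjusted p = 0.70) and Rpl41 (0.06 ± 0.10 SE, adjusted p = 0.79), the smallest ribosomal protein, had differences within their standard error. Rpl38, which in mice is needed for patterning of the axial skeleton, differed by 0.20 ± 0.10 SE (adjusted p = 0.30), Rpl10, near the site of tRNA binding, by 0.15 ± 0.08 SE (adjusted p = 0.32), and Rps2 by 0.12 ± 0.06 SE (adjusted p = 0.22). In the limma fit over all probe sets, another Rps2 probe set differed by 0.20 (adjusted p = 0.033) and the remaining one by 0.17 (adjusted p = 0.23). Rpl12, whose probe set was dim, differed by 0.28 ± 0.12 SE (adjusted p = 0.17), and Rpl21 by 0.20 ± 0.07 SE (adjusted p = 0.10, just above the threshold). The same Rpl21 probe set passed in the limma fit over all probe sets (adjusted p = 0.095).

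**Figure D2:**
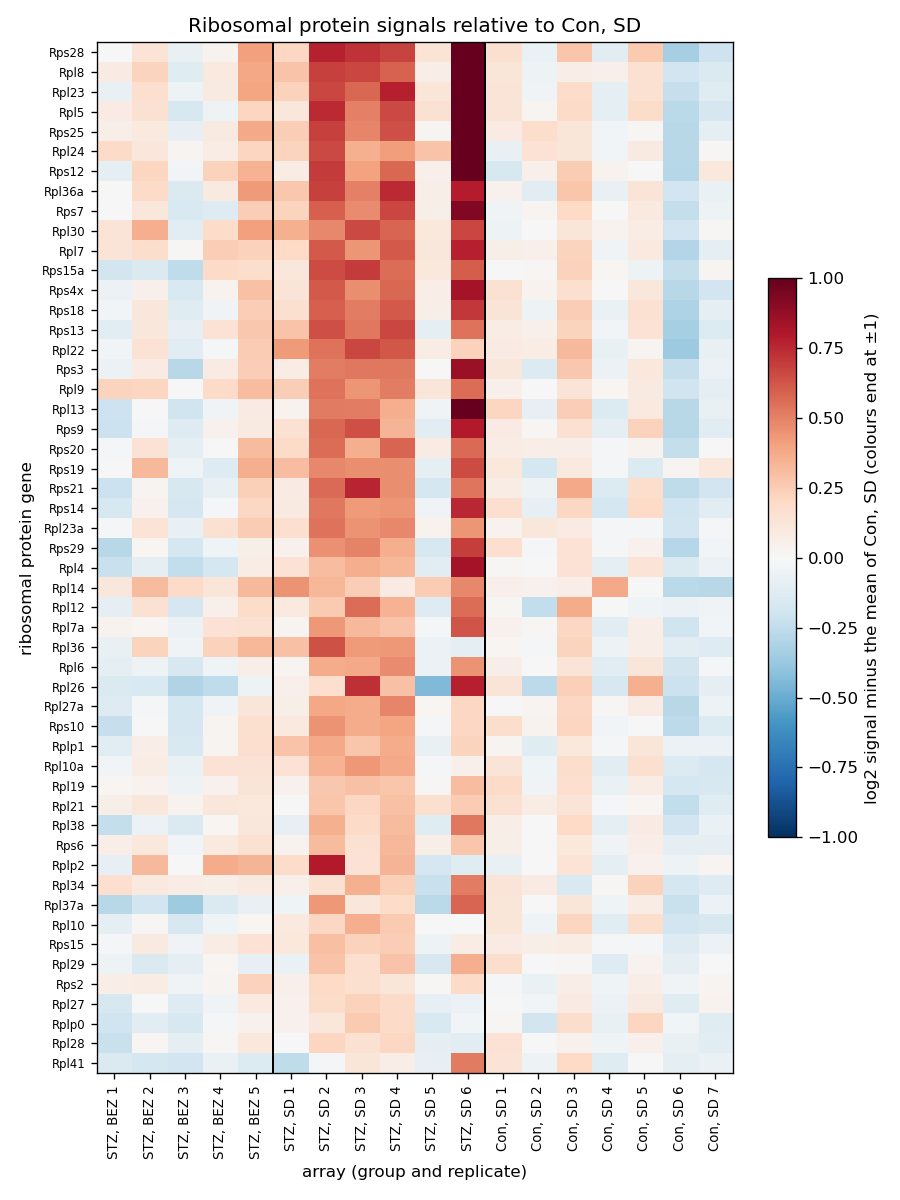
Log2 signal of each of the 52 members on each array minus the member's mean in Con, SD, with members ordered by the difference of STZ, SD and Con, SD and arrays by group (STZ, BEZ, STZ, SD and Con, SD). Replicates 2, 3, 4 and 6 of STZ, SD are red over nearly the whole column, whereas replicates 1 and 5 of STZ, SD are paler.

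The printed starts can be set beside these values. Of 21 members with a pyrimidine run in a window 10 rose (median difference 0.28), and of 20 with a window but no run 11 rose (median 0.38). Of 15 members with CCGGAAG 5 rose (median 0.25), against 16 of 26 without it (median 0.40). No test of these splits was made.

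Other probe sets of the members were examined as well. The mouse genome holds many processed copies of ribosomal protein genes, and short probes cannot always separate them from the parent gene. The 52 members had 203 probe sets of their own symbol, 37 members more than 1 and Rps12 as many as 14. In a fit over all probe sets, 203 of 203 had a positive difference between STZ, SD and Con, SD and 132 were called higher, where 7.95% of all 35556 probe sets were. The 203 are not independent, since they fall on 52 genes and hold 191 distinct sets of values. Among the 15 members with 1 probe set 8 rose, with a median difference of 0.31. A further 16 symbols of the same form (Rpl3, Rpl11, Rpl13a, Rpl15, Rpl17, Rpl31, Rpl32, Rpl35, Rpl35a, Rpl37, Rpl39, Rps16, Rps23, Rps24, Rps26 and Rps27) appeared only on probe sets with several symbols and are given no value here.

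In STZ, BEZ the mean over the members lay within 1 SD of that in Con, SD. The difference from STZ, SD was below 0 for 52 of 52 members, with a median of -0.30, against 0.01 over all genes, and these differences share the STZ, SD arrays with the comparison above. No member passed the threshold with limma (0 higher and 0 lower), where 0.682% of all genes were called higher and 0.0251% lower. SAM also called 0 in either direction. At an unadjusted p under 0.05, 36 members were lower and 0 higher, where 2.67% of all genes were lower and 7.54% higher. Without replicate 5 of STZ, SD, the array of lowest ribosomal protein signal in that group, 24 members were called lower, with 0.296% of all genes. Without replicate 1 of STZ, SD 14 members were, with 0.231% of all genes. Leaving out any other single array gave 0.

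The smallest adjusted p was that of Rps15a, with 7.77, 7.81, 7.69, 8.14 and 8.13 in STZ, BEZ and 8.05, 8.53 and 8.65 (lowest, median, highest) in STZ, SD. The difference was -0.50 ± 0.13 SE (adjusted p = 0.12), and STZ, BEZ replicates 4 and 5 overlapped with the lowest STZ, SD arrays. Rps7 had 11.57, 11.68, 11.42, 11.44 and 11.81 in STZ, BEZ and 11.63, 12.10 and 12.49 in STZ, SD (-0.47 ± 0.13 SE, adjusted p = 0.15). Rpl4 differed by -0.44 ± 0.12 SE (adjusted p = 0.16) and Rpl6 by -0.33 ± 0.10 SE (adjusted p = 0.21). The lowest difference of all was that of Rps28, -0.55 ± 0.18 SE (adjusted p = 0.26).

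Rpl24 was the single member whose groups did not overlap, a separation that 0.451% of all genes had in this direction. It had 9.87, 9.79, 9.70, 9.75 and 9.89 in STZ, BEZ against a lowest STZ, SD array of 9.90 (-0.41 ± 0.15 SE, adjusted p = 0.31). Rplp2 was at the other end, with 7.07, 7.47, 7.16, 7.52 and 7.49 in STZ, BEZ and 6.98 to 7.95 in STZ, SD, and its difference of -0.0035 ± 0.14 SE was close to 0. Without the 5 arrays of high pancreas signal the median difference of the members was -0.08 with 5 of 52 above 0, but only replicate 5 was then left of STZ, BEZ, the array of highest ribosomal protein signal in that group.

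**Figure D3:**
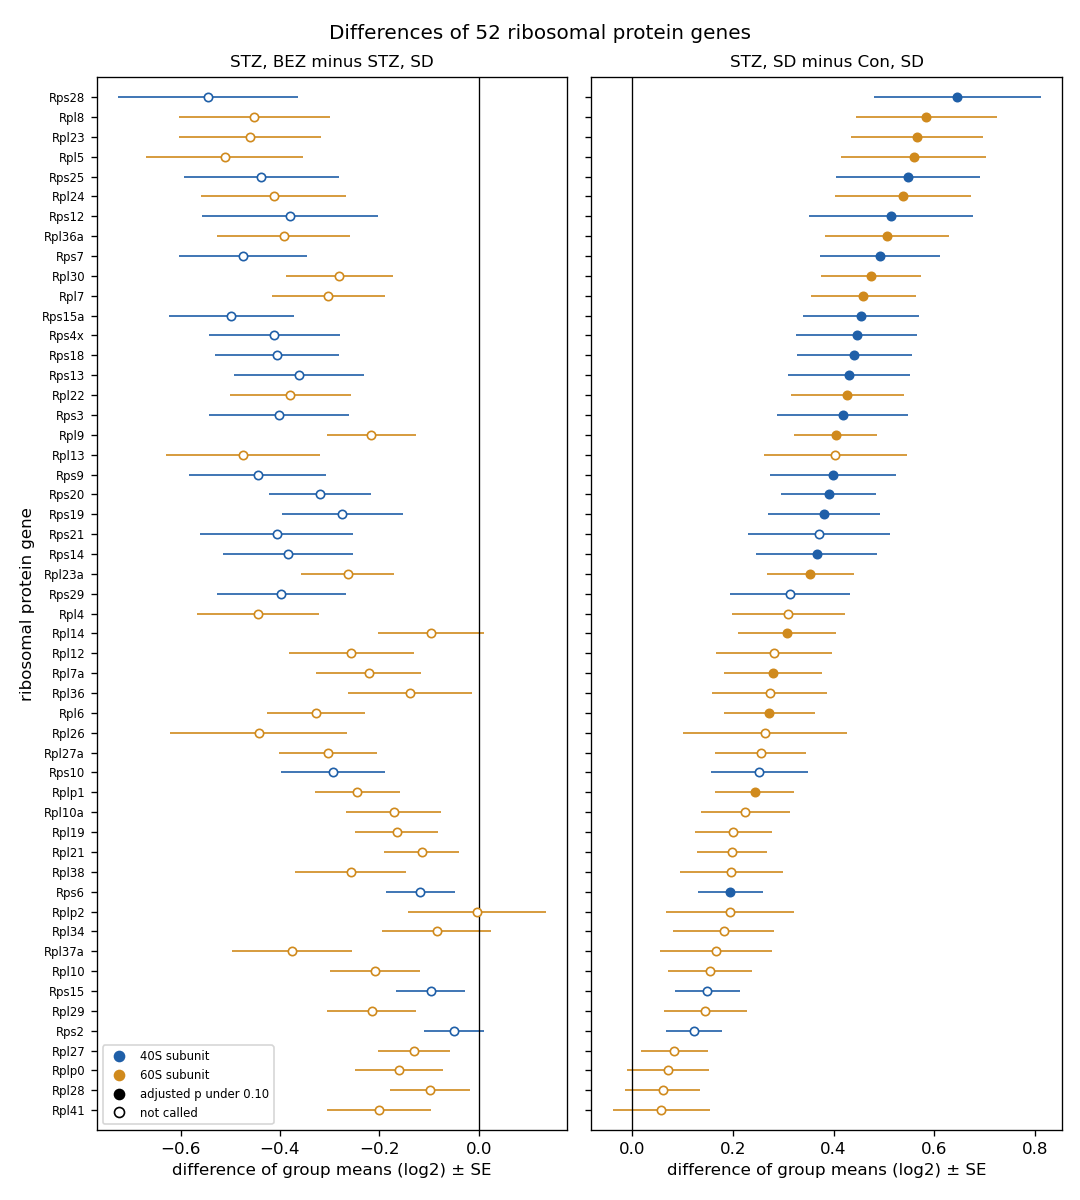
Differences between group means in log2 units (points, with SE as bars) for the 52 members in STZ, BEZ minus STZ, SD and in STZ, SD minus Con, SD, ordered by the second; filled points passed an adjusted p under 0.10. All points of STZ, SD minus Con, SD lie above 0 with 28 filled, and all points of STZ, BEZ minus STZ, SD lie below 0 with 0 filled; both panels share the STZ, SD arrays.

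Set against Con, SD directly, STZ, BEZ showed 0 members higher and 0 lower with limma, where 4.57% of all genes were called higher and 1.38% lower. The median difference was 0.04, with 32 of 52 above 0 and a range of -0.21 (Rpl37a) to 0.21 (Rpl14), and 1 member, Rpl9, had an unadjusted p under 0.05. Rpl9 had 12.04, 12.03, 11.81, 12.01 and 12.12 in STZ, BEZ and 11.62, 11.83 and 11.94 in Con, SD (0.19 ± 0.09 SE, adjusted p = 0.25). Rpl14 differed by 0.21 ± 0.10 SE (adjusted p = 0.28), Rpl30 by 0.19 ± 0.10 SE (adjusted p = 0.34) and Rpl37a by -0.21 ± 0.12 SE (adjusted p = 0.37). SAM called Rpl9, Rpl14, Rpl30 and Rplp2 higher and Rpl37a lower, where it called 16.5% of all genes higher and 7.52% lower. Without the 5 arrays of high pancreas signal the median difference was 0.20 with 48 of 52 above 0 and 0 called, with only replicate 5 left of STZ, BEZ. A p above the threshold does not show that the groups were equal. The mean over the members was 10.88 ± 0.12 (SD, n = 5) in STZ, BEZ, 11.18 ± 0.22 (SD, n = 6) in STZ, SD and 10.85 ± 0.12 (SD, n = 7) in Con, SD.

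**Figure D4:**
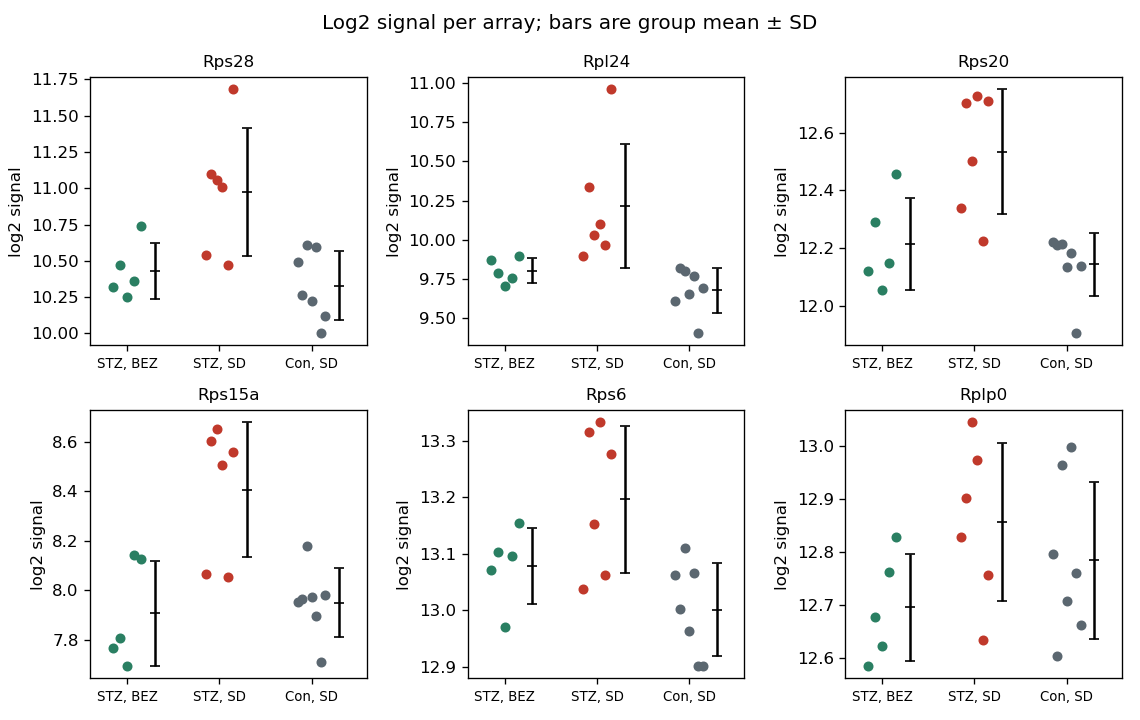
Log2 signal per array of Rps28, Rpl24, Rps20, Rps15a, Rps6 and Rplp0 in STZ, BEZ, STZ, SD and Con, SD; points are arrays in order of replicate number and black bars are group means ± SD. In Rpl24 and Rps20 all STZ, SD arrays lie above all Con, SD arrays, and in Rplp0 the 3 groups overlap.

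The signal of the ribosomal proteins moved with that of the white adipocyte markers. Replicates 2, 3, 4 and 6 of STZ, SD, the 4 arrays of highest ribosomal protein mean, had adipocyte list means of 11.59, 11.43, 11.24 and 10.09, all below the lowest Con, SD array (11.87). Replicates 1 and 5, the STZ, SD arrays within the Con, SD range, had 12.31 and 12.50. Among the Con, SD mice the 3 arrays with the lowest adipocyte means (11.87, 11.98 and 12.10) had the 3 highest ribosomal protein means (10.94, 10.92 and 11.02). These are Con, SD replicates 5, 1 and 3, and their epididymis list means were 12.46, 8.74 and 12.36, with replicates 5 and 3 the highest of the group. On STZ, SD replicates 2, 3, 4 and 6 the epididymis mean was 5.89, 12.47, 9.40 and 6.30. The part of epididymis tissue in this relation was not tested. In a fit with the adipocyte list mean as a covariate, added after the values were seen, the median difference between STZ, SD and Con, SD was 0.15. In it 4 of the 52 members were called higher (Rpl8, Rpl9, Rpl23 and Rpl30), where 8.32% of all genes were, so the members' count was no more than the share over all genes. In the same fit the median difference of STZ, BEZ and STZ, SD was -0.10. With the pancreas and epididymis list means as covariates, 38 members were called higher in STZ, SD vs. Con, SD, where 9.81% of all genes were. That fit called 15 members lower in STZ, BEZ vs. STZ, SD, along with 4.27% of all genes, so calls rose over all genes as well. The adipocyte genes are themselves regulated by insulin, so the tissue make-up and the state of the adipocytes cannot be told apart. The B cell means of STZ, SD replicates 2, 3 and 4 (6.48, 6.04 and 6.14) were not above the Con, SD range of 6.19 to 6.96, nor were their T cell means (6.37, 6.01 and 6.20) above that of 6.05 to 6.53. Macrophage genes (6 of 6 measured) had means of 7.97 to 9.34 in STZ, SD and 8.58 to 9.67 in Con, SD, and mesothelial genes (5 of 5) had 7.91 to 9.52 in STZ, SD and 7.80 to 8.76 in Con, SD.

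Other marker lists had genes that fell in STZ, SD vs. Con, SD, where 4.52% of all genes were called lower. Of 5 skeletal muscle genes 3 fell, and the list mean was 6.54 to 6.98 in STZ, SD, below all Con, SD arrays (7.11 to 9.70). Of 4 measured hepatocyte genes 2 fell, with list means of 6.75 to 7.82 in STZ, SD and 7.77 to 10.44 in Con, SD. Of 5 fibroblast genes Col1a1, Col3a1 and Dpt fell, while the other 2, Pdgfra and Dcn, had differences above 0 and were not called. The list means were 9.82 to 10.88 in STZ, SD and 10.56 to 10.94 in Con, SD. Among the STZ, SD and Con, SD arrays, the fibroblast list mean was lowest on STZ, SD replicates 6, 3 and 2, which are among the arrays of highest ribosomal protein signal. STZ, BEZ replicate 5 had a fibroblast mean of 10.30, below that of STZ, SD replicate 2 (10.33). The muscle genes were below all Con, SD arrays on STZ, SD replicates 1 and 5 as well (6.98 and 6.77). The part of these cell types in the ribosomal protein result was not tested.

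**Figure D5:**
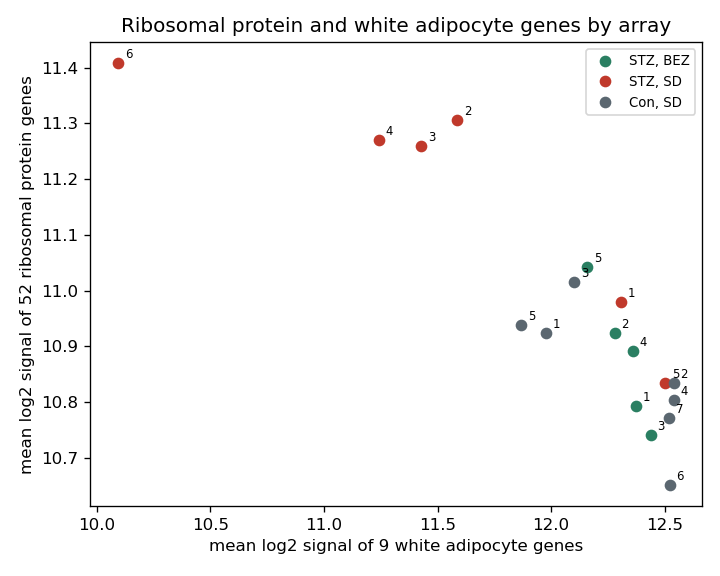
Mean log2 signal of 9 white adipocyte genes (horizontal axis) and of the 52 members (vertical axis) on each array, with replicate numbers beside the points and colours for STZ, BEZ, STZ, SD and Con, SD. The 4 STZ, SD arrays with the highest ribosomal protein signal lie apart at adipocyte means from 10.09 to 11.59, and the other arrays of all groups lie together at 11.87 to 12.54.

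Genes whose products work beside these proteins were counted in the same fit. For these counts, 5.82% of all genes were called higher and 4.52% lower in STZ, SD vs. Con, SD. Rpsa and Rps3a1, 40S proteins whose symbols fall outside the rule, rose in STZ, SD vs. Con, SD by 0.46 and 0.54 on the log2 scale (adjusted p = 0.057 and 0.062), and Fau, which encodes a 40S protein fused to a ubiquitin-like domain, differed by 0.19 (adjusted p = 0.29). Of 7 measured paralogs such as Rpl3l of muscle and Rpl39l of testis 0 passed with limma, and 0 had an unadjusted p under 0.05. Of 40 ribosome assembly factors 10 rose and 0 fell (median difference 0.09), among them Npm1 and Ncl of the nucleolus (0.60 and 0.27) and the small-subunit processome proteins Wdr43 and Utp15 (0.35 and 0.32). Of 11 RNA polymerase I genes Taf1d and Polr1b rose (0.66 and 0.26) and Polr1d fell by 0.26.

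Among 31 translation initiation factors 6 rose and 0 fell (median 0.03). Those of smallest p were Eif4b (0.59), Eif4a2 (0.60), Eif3m (0.53) and Eif3a (0.29). Of 7 elongation and termination genes, only Eef1b2 rose (0.45). Of 18 other mRNAs with a TOP motif 8 rose, with Naca (0.37) beside Npm1 and Eif4b, and Vim fell by 0.56 (list median 0.20). A list of 21 genes around mTORC1 and translation was also counted, and not all of them are parts or targets of mTORC1. In it Myc and Ddit4 rose (1.08 and 0.64) and Sesn2 and Rps6ka3 fell by 0.48 and 0.72. In STZ, BEZ vs. STZ, SD limma called 0 of the 127 genes of these 8 lists. At an unadjusted p under 0.05, 9 were higher and 20 lower, where 7.54% of all genes were higher and 2.67% lower. In STZ, BEZ vs. Con, SD 5 of the 127 genes were called. Over all genes 4.57% were called higher and 1.38% lower, so this count was no more than the share over all genes. Taf1d (0.85, adjusted p = 0.0016), Dkc1 (0.91, adjusted p = 0.014), Myc (0.93, adjusted p = 0.065) and Rps6kb2 (0.32, adjusted p = 0.029), which encodes an S6 kinase, were higher, and Nhp2 fell by 0.34 (adjusted p = 0.091).

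The proteins of the mitochondrial ribosome, encoded in the nucleus by genes of another family, did not share the pattern in counts. Of 76 such genes 3 rose and 5 fell in STZ, SD vs. Con, SD, with a median difference of -0.08. Over all genes 5.82% were called higher and 4.52% lower. Against STZ, SD, STZ, BEZ had 2 called higher and 0 lower (0.682% and 0.0251% of all genes), a median of 0.26 and 76 of 76 differences above 0. At an unadjusted p under 0.05, 39 were higher and 0 lower, where 7.54% of all genes were higher and 2.67% lower. Against Con, SD, STZ, BEZ had 12 called higher and 0 lower, with a median of 0.17, where 4.57% of all genes were called higher and 1.38% lower. The array means were lowest on STZ, SD replicates 4, 2 and 6 (8.39, 8.42 and 8.48), 3 of the 4 arrays of highest cytosolic ribosomal protein signal. They were 8.74 to 8.87 in STZ, BEZ, 8.39 to 8.84 in STZ, SD and 8.49 to 8.78 in Con, SD.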

How the data were processed

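Total RNA of visceral fat of 18 mice was labelled and hybridised to Affymetrix arrays (Mouse Gene 1.0 ST), with 1 array for each mouse. Expression Console 1.2 and the RMA method, per the labels, were the authors' software for probe set summaries, and the deposited values are log2 signals of 35556 probe sets. Background correction and quantile scaling of that method make array medians alike (6.76 to 6.87), so a value is relative to the other transcripts of the array. Of the probe sets, 21789 had 1 gene symbol in the platform table, 1621 had several and 12146 had none. For each of 19938 genes the probe set of highest mean signal was kept, with no filter on low values. The 3 groups were fitted together with limma 3.58.1 in R 4.3.3 (lmFit and eBayes), p-values (two-sided) were adjusted by Benjamini-Hochberg over all 19938 genes, and a gene was called at an adjusted p under 0.10, after the false discovery rate of 10% that the study used with SAM. The number of arrays limits the precision, and standard errors are from 15 residual and 2.44 prior degrees of freedom. The number of columns left out was 0. No pair of arrays were copies, since at most 96 probe sets had equal values. The fit and SAM (100 permutations) were tested on simulated data. Members and gene lists were chosen with earlier results of these data known, and the lists come from general knowledge of the genes. Named genes were those of smallest p (12, or 4 where under 4 were called), the 3 members of highest and lowest mean signal, those of largest and smallest SD, and a fixed set of known members, with up to 4 called genes of each related list. Rpl26 and Rpl28 were added after their values were seen. Alternatives were an adjusted p under 0.05, SAM, other choices of probe set, a filter on dim genes, other scalings, a variance trend, fits on 2 groups, a replicate block, 3 more ribosomal proteins, each array left out, and 3 fits on tissue markers added after seeing the data. No genome was used, and promoter windows are those of RefSeq (GRCm38.p6).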

Additional observations from a re-analysis of the deposited data

Results flagged for a closer look

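In 3 of 96 groups of arrays searched, the named members and the member mean in each of the 3 groups, 1 array lay far from the rest by Dixon's criterion, which chance alone gives for about 1 in 20 groups. Rplp1, a stalk protein, had 12.36 on STZ, SD replicate 5, where the nearest other STZ, SD array had 12.65. Rpl12 had 6.93 on Con, SD replicate 3, where the nearest Con, SD array had 6.56. Rps20 had 11.91 on Con, SD replicate 6, where the nearest had 12.14.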

How the results depend on the processing

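The depth of an array is fixed by its probes, and 18 arrays limit what could be called. The SD of the member mean between mice was 0.118 in STZ, BEZ, 0.220 in STZ, SD and 0.122 in Con, SD. The median difference of the members in STZ, SD vs. Con, SD was 0.31 and became 0.15 with the adipocyte covariate. In STZ, BEZ vs. STZ, SD it was -0.30 and became -0.10 with that covariate and -0.08 without the 5 arrays of high pancreas signal, and in STZ, BEZ vs. Con, SD 0.04 became 0.20 without those arrays. These moves exceed the smaller SDs. The 28 members called higher in STZ, SD vs. Con, SD (5.82% of all genes) became 18 at an adjusted p under 0.05 (3.28%). They became 18 in a fit on the arrays of those groups only (3.13%) and 4 with the adipocyte covariate (8.32%). With 1 array left out they lay from 17 to 41 (3.47% to 9.54%). A fit with a replicate block called 2, Rpl9 and Rpl30, where 2.23% of all genes were called higher. Correlations between same-numbered arrays ran from -0.357 to 0.700. Arrays of different number were not compared, so whether the numbers pair the mice was not tested. Other alternatives with more than 1 array in each group gave 26 to 38 (5.32% to 9.81% of all genes), and 0 members were called lower in any. In STZ, BEZ vs. STZ, SD the 0 members called lower became 1 (Rps15a) with a filter on dim genes (0.0602% of all genes). They became 15 with the pancreas and epididymis covariates (4.27%) and 0 to 24 with 1 array left out (0 to 0.296%). In STZ, BEZ vs. Con, SD the 0 called higher became 1 with the pancreas and epididymis covariates (Rpl36, with 10.7% of all genes). With the adipocyte covariate it also became 1 (Rpl9, with 8.23%). SAM called 4 higher (16.5%) and 1 lower (7.52%). Small differences changed sign, and the causes were not tested. In STZ, BEZ minus STZ, SD, Rplp2 became 0.0218 with array medians set to 0, 0.0124 with quantile normalization, -0.0768 to 0.117 with 1 array left out (above 0 without STZ, SD replicates 2 and 4 and STZ, BEZ replicates 1 and 3), and 0.0852 with the pancreas and epididymis covariates. Without the 5 arrays Rplp2 became 0.0798, Rpl14 0.0485, Rps2 0.123 and Rps19 0.0386, and with the adipocyte covariate Rps2 became 0.0177 and Rpl41 0.0249. In STZ, SD minus Con, SD, Rpl41 lay from -0.0336 to 0.121 with 1 array left out, the lowest being without STZ, SD replicate 6 and also its value without the 5 arrays, and with the adipocyte covariate Rpl41 became -0.160, Rpl37a -0.0774, Rpl38 -0.0251 and Rplp0 -0.00037.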
